A study of Mus musculus with 14 samples.

Results

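Of the 23284 genes listed in the processed data, 10 encode the interleukins and colony-stimulating factors described here, Il1a, Il1b, Il1rn, Il6, Il18, Il33, Lif, Csf1, Csf2 and Csf3, chosen by their gene symbols. EpH4 cells are epithelial cells of the mouse mammary gland, grown as a line, from which EpRas cells were made by transformation with H-RasG12V. mRNA of both lines was sequenced after 48 h with or without 1 ng/ml TGF-β3, with 2 biological replicates for each of the 4 groups. EpRas cells that had received negative control siRNA (siNC), or siRNAs to Etv4 and Etv5 together in either of 2 pairs, were sequenced in the same way, untreated or treated with TGF-β3 for 48 h, with 1 library for each of these 6 conditions. EpH4 cells were grown in 10% and EpRas cells in 4% fetal bovine serum, so that the effects of serum and of the transformation cannot be told apart, and each line is a single line without an independent derivative. Expression was measured as FPKM, a count of fragments divided by the length of the exons of a gene and by the mapped fragments of the library.

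The members belong to several families of secreted signals. Il1a, Il1b, Il18 and Il33 encode cytokines of the interleukin-1 family. They have no conventional secretion signal, are released from damaged or inflamed cells, and signal through receptors with Myd88 to NF-κB, while Il1rn encodes the antagonist that blocks the interleukin-1 receptor. Il6 and Lif encode cytokines that signal through receptor complexes containing gp130 (Il6st) to Stat3, and Lif is known in the mammary gland for activating Stat3 at involution. Csf1, Csf2 and Csf3 encode the factors for macrophages (M-CSF), for granulocytes and macrophages (GM-CSF) and for granulocytes (G-CSF), and mammary epithelium is a known source of M-CSF, which attracts and maintains macrophages of the gland.

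The genes of 3 members lie on chromosome 2, with Il1rn at chr2:24336860-24351491, Il1a at chr2:129299609-129310186 and Il1b at chr2:129364569-129371164, and another 3 lie on chromosome 11, with Lif at chr11:4257568-4272514, Csf2 at chr11:54247270-54249899 and Csf3 at chr11:98700183-98703631 (RefSeq, GRCm38.p6, the build of the processed data). Csf1 lies at chr3:107741048-107760469, Il6 at chr5:30013114-30019975, Il18 at chr9:50554700-50581841 and Il33 at chr19:29925113-29960718. For 8 members another annotated gene overlaps the span of the gene, and Il1rn and Lif are the exceptions. The libraries were directional, but whether the counting used the strand is not given in the sources used here, so reads of an overlapping gene cannot be told apart from those of these 8 members. Promoter windows of 300 bases, from 250 bases before to 50 bases after the start, were found in the RefSeq table for 9 members, 12 windows in all. They were searched on both strands for the AP-1 motif TGANTCA, the ETS motif CCGGAA, the Smad motif CAGACA and the NF-κB motif. The windows of Lif and Csf1, the members with the highest levels, and those of Il1a and Il1rn, 2 members with low levels that were higher in untreated EpH4 than in untreated EpRas cells, are shown 5′ to 3′ on the strand of the gene, with the matches in capitals. Of the 3 windows of Il1rn only the first is shown, and the others held no match.
Lif promoter, chr11:4257318-4257617, plus strand: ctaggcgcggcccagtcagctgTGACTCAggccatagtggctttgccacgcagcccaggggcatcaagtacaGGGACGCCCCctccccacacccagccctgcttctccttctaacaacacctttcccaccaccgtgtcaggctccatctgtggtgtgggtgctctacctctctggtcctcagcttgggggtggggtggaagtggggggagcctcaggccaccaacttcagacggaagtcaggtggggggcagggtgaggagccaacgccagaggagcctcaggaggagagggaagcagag
Csf1 promoter, chr3:107760420-107760719, minus strand: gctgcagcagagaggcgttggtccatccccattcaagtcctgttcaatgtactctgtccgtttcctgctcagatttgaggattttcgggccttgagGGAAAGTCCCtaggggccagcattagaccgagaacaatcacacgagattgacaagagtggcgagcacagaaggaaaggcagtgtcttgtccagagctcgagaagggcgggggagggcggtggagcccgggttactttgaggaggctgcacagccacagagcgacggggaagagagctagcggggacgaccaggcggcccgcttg
Il1a promoter, chr2:129309923-129310222, minus strand: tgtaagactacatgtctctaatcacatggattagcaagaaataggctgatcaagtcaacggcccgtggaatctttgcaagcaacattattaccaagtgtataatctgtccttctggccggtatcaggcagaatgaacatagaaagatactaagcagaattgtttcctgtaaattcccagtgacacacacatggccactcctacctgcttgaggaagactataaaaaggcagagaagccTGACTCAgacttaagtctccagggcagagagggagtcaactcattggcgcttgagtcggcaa
Il1rn promoter, chr2:24336610-24336909, plus strand: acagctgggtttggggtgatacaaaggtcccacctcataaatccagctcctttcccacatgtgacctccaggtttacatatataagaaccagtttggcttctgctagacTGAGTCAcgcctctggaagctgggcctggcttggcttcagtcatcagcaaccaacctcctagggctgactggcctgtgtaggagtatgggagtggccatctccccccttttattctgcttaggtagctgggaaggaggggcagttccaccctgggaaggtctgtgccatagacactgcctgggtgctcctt

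The AP-1 motif was matched in the windows of Lif (first base at -228 from the start), Il1a (at -12), Il1rn (at -141) and Il6 (at -249), against 7.81% of the 32851 windows of all genes. For Il1rn the match was in 1 of its 3 windows. The NF-κB motif was matched in the windows of Lif (at -178), Csf1 (at -154) and Il6 (at -44), against 8.46% of all windows, and the Smad motif in that of Il6, against 21% of all windows. The ETS motif, the motif of the family of Etv4 and Etv5, stood in 14.9% of all windows, and its letters were in none of the windows of the 9 members. A match is a sequence of letters and was not measured as binding here.

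Signs of the treatment and of the knockdown were present. Smad7, a target of TGF-β, lay between 6.31 and 8.64 FPKM in untreated and between 11.4 and 21.8 FPKM in treated untransfected cells. With the siRNA pairs, Etv4 was at 19.6 to 48.5% and Etv5 at 14.2 to 23.2% of siNC, where pair 2 left the most Etv4 (48.5% in untreated cells). Of 8 epithelial markers, 7 reached 5 FPKM in at least 1 library, and the sum of the list lay between 2440 and 9020 FPKM. Ptprc, which marks all leukocytes, was listed at 0 in 13 of 14 libraries and at 0.0267 FPKM in the other. The sum of the leukocyte markers was 12.8 to 28.2 FPKM in EpH4 and 34.9 to 50.5 FPKM in untransfected EpRas cells, that of the fibroblast markers 22.6 to 247 FPKM and 8.42 to 13.5 FPKM, and that of the endothelial markers at most 2.0 FPKM in all libraries. The part of these lists in the differences between the lines was not tested. The relative depth of the untransfected libraries lay between 0.609 and 1.36, and a level of 5 FPKM corresponded to 46.9 to 104.5 reads there and to 97.5 to 169.6 reads in the siRNA libraries (medians over genes).

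Only 3 of the 10 members, Csf1, Lif and Csf3, reached 5 FPKM in any library and entered the tests across all genes. The other 7 stayed below 5 FPKM in all 14 libraries. Il6 and Il33 were not expressed (under 1 FPKM throughout). In untreated EpH4 cells the level of Csf1 was above that of 96.8% of the listed genes, that of Lif above 88.9% and that of Csf3 above 84.8%. Fewer cells expressing a gene and less RNA per cell cannot be told apart in these bulk samples.

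**Figure D1:**
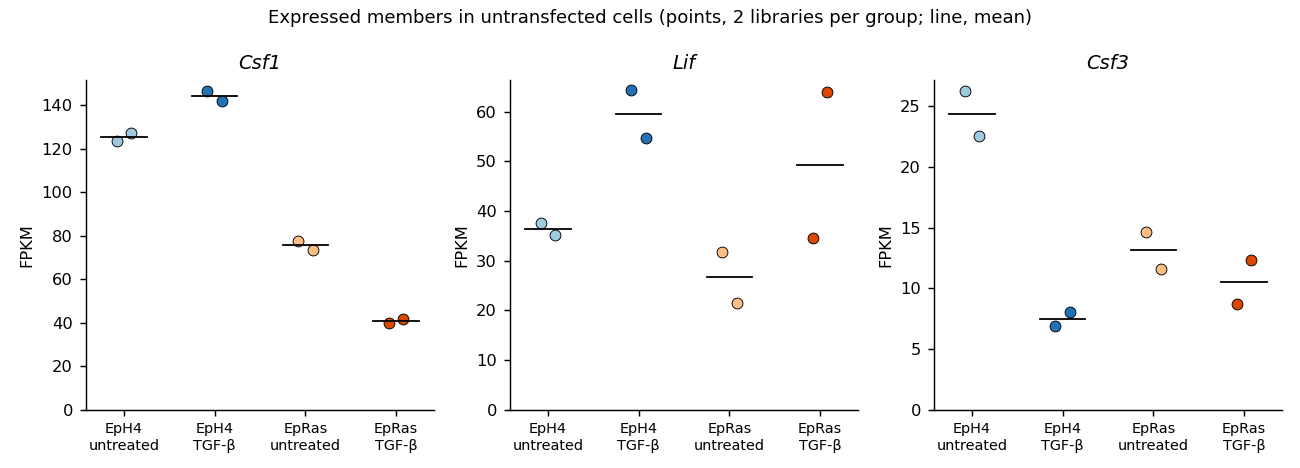
FPKM (vertical axis) of Csf1, Lif and Csf3 in the 4 groups of untransfected cells (horizontal axis), with a point for each of the 2 libraries and a line at their mean. Csf1 lies between 124 and 146 FPKM in the EpH4 libraries and between 39.8 and 77.7 FPKM in the EpRas libraries.

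Csf1, which encodes M-CSF, had the highest mean FPKM of the members in 3 of the 4 untransfected groups and was lower in EpRas than in EpH4 cells. In EpRas cells with TGF-β the mean of Lif was higher. Csf1 was at 124 and 127 FPKM in untreated EpH4 cells and at 146 and 142 FPKM in EpH4 cells with TGF-β. In EpRas cells Csf1 was at 77.7 and 73.4 FPKM when untreated and at 39.8 and 41.5 FPKM when treated. All EpRas libraries were below all EpH4 libraries, and no groups overlapped. Without TGF-β, the mean of Csf1 was 125.5 ± 2.77 FPKM for EpH4 and 75.6 ± 3.09 FPKM for EpRas cells (SD, n = 2), a limma difference of -0.73 ± 0.14 (SE) on the log2(FPKM + 1) scale (adjusted p = 0.0116). With TGF-β, the levels of 144.2 ± 3.10 and 40.7 ± 1.22 FPKM (SD, n = 2) were 3.55-fold apart, with a log2 difference of -1.80 ± 0.14 (limma, adjusted p = 0.000157). The call with TGF-β was kept in every alternative that was run. That without TGF-β was lost by leaving out any 1 of the 4 libraries compared, with log2 differences from -0.77 to -0.68 and adjusted p of up to 0.0671.

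After TGF-β, Csf1 lay on opposite sides of its untreated level in the 2 lines. In EpRas cells it fell to 0.538 of the untreated level (log2 difference -0.88 ± 0.14, limma, adjusted p = 0.0153). In EpH4 cells both treated libraries were above both untreated ones, with a ratio of the means of 1.15 (log2 difference 0.20 ± 0.14), and the difference did not pass the test (limma, adjusted p = 0.432). The difference between the 2 effects was -1.08 ± 0.19 on the log2 scale, with an adjusted p of 0.0663 in limma over all genes (unadjusted, 0.000724), and so missed the threshold. The call in EpRas cells was lost without either library of untreated EpRas cells (adjusted p = 0.112 and 0.0783), without either library of EpH4 cells with TGF-β (0.0573), and in a fit of the 2 EpRas groups alone (0.161). The sum of the epithelial markers also lay higher with TGF-β in EpH4 (8520 to 9020 FPKM, against 4840 to 6170 FPKM without) and lower in EpRas cells (2440 to 4100 FPKM, against 4060 to 5150 FPKM), with an overlap in the latter, and its part in the result for Csf1 was not tested.

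Csf3, which encodes G-CSF, was highest in untreated EpH4 cells and fell there with TGF-β. Its level in EpH4 cells was 26.2 and 22.6 FPKM without and 6.91 and 8.05 FPKM with TGF-β, and in EpRas cells 14.7 and 11.6 FPKM without and 8.71 and 12.3 FPKM with TGF-β. The groups of EpH4 cells stood far apart, while those of EpRas cells overlapped. TGF-β lowered Csf3 in EpH4 cells from 24.4 ± 2.58 to 7.48 ± 0.813 FPKM (SD, n = 2), to 0.306 of the untreated level (log2 difference -1.58 ± 0.21, limma, adjusted p = 0.00435). In EpRas cells the log2 difference was -0.31 ± 0.21 (95% interval -0.80 to 0.18, limma, adjusted p = 0.557). The difference between these effects, 1.27 ± 0.30, did not pass the test (limma, adjusted p = 0.158). For this gene the FPKM could be turned back into whole reads, and the 388 reads of untreated and 93 reads of treated EpH4 cells gave a ratio per depth of 0.315 (exact 95% interval 0.248 to 0.395, counting error only).

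Between the lines, Csf3 was lower in EpRas cells without TGF-β, with 1.86-fold between the means (log2 difference -0.85 ± 0.21, limma, adjusted p = 0.0318). After treatment both EpRas libraries exceeded both EpH4 libraries, and the log2 difference of 0.43 ± 0.21 did not pass the test (limma, adjusted p = 0.192). The fall with TGF-β in EpH4 cells missed the threshold only without replicate 1 of the treated EpH4 cells (adjusted p = 0.0567). The call between untreated lines was lost without any 1 of the 4 libraries compared, without either library of EpH4 cells with TGF-β and in a fit of the 2 groups alone, at adjusted p of 0.0524 to 0.158.

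Lif was expressed in all groups, and none of its differences passed the test. It was at 37.5 and 35.1 FPKM in untreated and 64.3 and 54.7 FPKM in treated EpH4 cells, whereas EpRas cells had 31.7 and 21.5 FPKM when untreated and 34.7 and 63.9 FPKM when treated. The treated libraries exceeded the untreated ones in both lines, and the treated EpRas libraries were 29.2 FPKM apart. TGF-β gave log2 differences of 0.69 ± 0.30 in EpH4 cells (95% interval -0.02 to 1.41, limma, adjusted p = 0.222) and 0.82 ± 0.30 in EpRas cells (0.11 to 1.54, adjusted p = 0.246). Between the lines the log2 difference was -0.46 ± 0.30 without (limma, adjusted p = 0.347) and -0.33 ± 0.30 with TGF-β (adjusted p = 0.481). The difference between the effects was 0.13 ± 0.43 (95% interval -0.88 to 1.14, limma, adjusted p = 0.934).

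**Figure D2:**
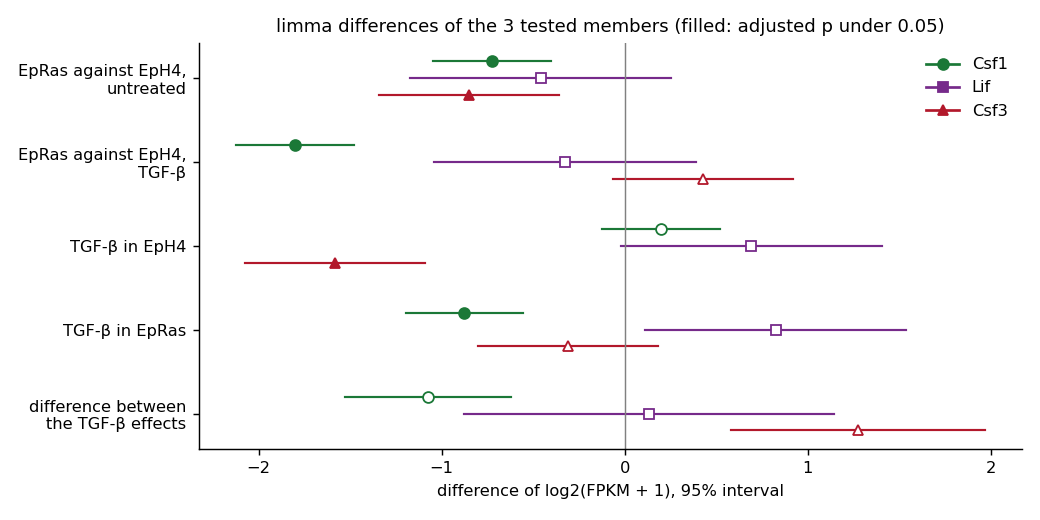
Differences of log2(FPKM + 1) from limma (horizontal axis, with 95% intervals) for Csf1, Lif and Csf3 in 5 comparisons (vertical axis), where filled symbols have an adjusted p under 0.05. Csf1 is filled on the negative side in 3 comparisons and Csf3 in 2, and Lif is open in all.

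Of the 3 members tested, 2 were called in untreated EpRas against EpH4 cells, where 17.6% of the 9100 genes tested were called in either direction. With TGF-β, 1 of 3 was called (Csf1), against 21.3% of the genes. TGF-β changed 1 of 3 in EpH4 cells (Csf3), against 9.40%, and 1 of 3 in EpRas cells (Csf1), against 3.82%. No member was called for the difference between the TGF-β effects, against 0.802% of the genes, although 2 members, Csf1 and Csf3, had an unadjusted p under 0.05 in limma. With so few members these counts describe the members only.

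The order of the levels differed between the 3 genes. For Csf1 it was EpH4 with TGF-β, untreated EpH4, untreated EpRas and EpRas with TGF-β, with no overlap between neighbours. For Csf3 it was untreated EpH4, untreated EpRas, EpRas with TGF-β and EpH4 with TGF-β, and the libraries of the middle groups overlapped. For Lif it was EpH4 with TGF-β, EpRas with TGF-β, untreated EpH4 and untreated EpRas, and here only the last neighbours did not overlap. The genes with the profile most like that of Csf1 over the 8 libraries were Acox2, a peroxisomal oxidase, and Kazn, with root mean square differences of 0.114 and 0.138 between centred log2(FPKM + 1) values. For Lif these were Fgd3 (0.141) and Ip6k2 (0.153), and for Csf3 Tprn (0.245) and Timm8a1 (0.245), so that no gene followed Csf3 as closely as the others were followed.

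In the siRNA libraries, with 1 library for each condition and therefore no test, Csf1 was higher with both siRNA pairs than with siNC. Without TGF-β its level was 28.0 FPKM for siNC, against 48.8 FPKM for pair 1 and 48.2 FPKM for pair 2, which was 174.5 and 172.4% of siNC. After TGF-β its levels were 36.0, 50.4 and 39.9 FPKM, or 139.9 and 110.8% of siNC. The intervals given by Cuffdiff for siNC, 14.6 to 41.4 FPKM, and for the pairs, 24.7 to 72.8 and 25.1 to 71.3 FPKM, overlapped in untreated cells. Between siNC libraries Csf1 was 1.29 times as high with TGF-β as without, whereas in untransfected EpRas cells it fell to 0.538. With pair 1 the ratio was 1.03 and with pair 2 it was 0.828. In each kind of transfected cells the Cuffdiff intervals with and without TGF-β overlapped, so no difference in direction is read from these single libraries. The 2 tables were normalized separately, the siRNA cells were processed independently, and the difference between siNC and untransfected cells was not tested.

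Lif was the only one of the 3 that reached a 2-fold difference after TGF-β in siNC cells, from 20.8 to 53.4 FPKM (2.57-fold), where 5.74% of the 9094 genes past the filter were at least 2-fold apart. The increases were smaller with the siRNA pairs, from 23.3 to 38.4 FPKM with pair 1 (1.64-fold) and from 14.3 to 23.1 FPKM with pair 2 (1.61-fold). With TGF-β, Lif was thus at 71.8% of siNC with pair 1 and 43.3% with pair 2, and without TGF-β it was on either side of siNC, at 112.4 and 69.0%. The Cuffdiff interval of siNC with TGF-β, 28.3 to 78.5 FPKM, overlapped those of pair 1 (20.3 to 56.4 FPKM) and pair 2 (12.1 to 34.1 FPKM).

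Csf3 with the siRNA pairs was below siNC without TGF-β, at 12.5 and 11.2 FPKM against 17.3 FPKM, on 146, 123 and 149 reads. This was 72.1% (exact 95% interval 57.0 to 91.3%, counting error only) and 64.9% (50.7 to 83%) of siNC. With TGF-β the pairs were on either side of siNC, at 24.8 and 17.2 FPKM against 22.5 FPKM. In all 3 kinds of transfected cells Csf3 was higher with TGF-β than without, 1.3-fold with siNC (1.07 to 1.59), 1.99-fold with pair 1 (1.63 to 2.44) and 1.54-fold with pair 2 (1.22 to 1.95). In untransfected EpRas cells the corresponding ratio of summed reads was 0.81 (0.626 to 1.04), and in EpH4 cells it was 0.315.

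**Figure D3:**
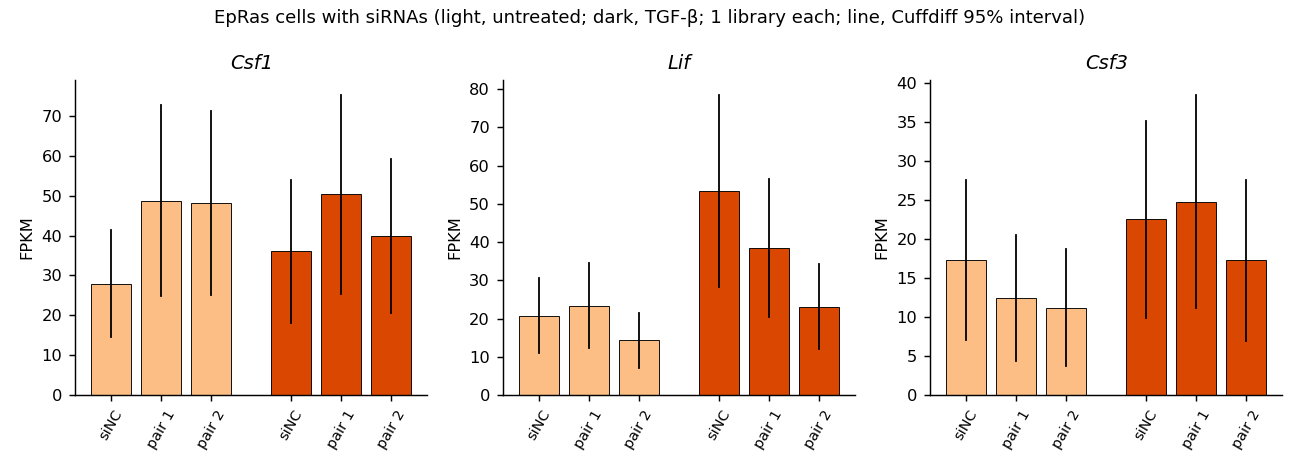
FPKM (vertical axis) of Csf1, Lif and Csf3 in EpRas cells with siNC or either siRNA pair (horizontal axis), untreated in light and with TGF-β in dark colour, where each bar is 1 library and the line is the interval given by Cuffdiff. Csf1 is lowest with siNC in both conditions, and Lif is highest with siNC and TGF-β at 53.4 FPKM.

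None of the 3 was at least 2-fold from siNC with both pairs, in untreated cells (background 4.02% of 9094 genes) or with TGF-β (background 3.82%).

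Among the members of the interleukin-1 family, Il1a was the one with the most reads. In untransfected cells it was at 0.865 and 0.779 FPKM in untreated EpH4, 1.06 and 0.716 FPKM in treated EpH4, 0.158 and 0.0848 FPKM in untreated EpRas and 1.01 and 0.144 FPKM in treated EpRas cells. Both untreated EpRas libraries held 1 read each, against 9 and 11 reads in untreated EpH4 cells, and the treated EpRas libraries differed (9 reads and 1 read). Over the summed reads, untreated EpRas cells were at 0.135 of untreated EpH4 cells per depth (exact 95% interval 0.0153 to 0.557, counting error only). With TGF-β the ratio was 0.736 (0.298 to 1.72), so that no difference between the lines was detectable there at this depth. Without the filter, the log2 difference of Il1a between the untreated lines was -0.70 ± 0.26 and did not pass the test (limma, adjusted p = 0.146).

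Among the siRNA libraries Il1a was highest with siNC and TGF-β. Untreated cells had 1.14 FPKM with siNC (15 reads), against 0.224 FPKM for pair 1 (4 reads) and 0.657 FPKM for pair 2 (11 reads). Treated cells had 3.14 FPKM with siNC (72 reads), against 0.991 FPKM for pair 1 (18 reads) and 1.35 FPKM for pair 2 (22 reads). The level with TGF-β was 31.6% (17.7 to 53.4%) of siNC with pair 1 and 43.0% (25.4 to 70.1%) with pair 2. After TGF-β, Il1a was higher in all 3 kinds of transfected cells, 2.76-fold with siNC (1.57 to 5.18), 4.43-fold with pair 1 (1.46 to 18.0) and 2.06-fold with pair 2 (0.956 to 4.70), the last with an interval that includes 1.

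Il1b was listed at 0 in 6 of 8 untransfected libraries, and the other 2, 1 of EpH4 and 1 of EpRas cells with TGF-β, held 2 reads and 1 read (0.419 and 0.227 FPKM). With siNC it was at 0.718 FPKM without and 1.24 FPKM with TGF-β (6 and 18 reads). Without TGF-β it was listed at 0 with both siRNA pairs, and after TGF-β its level was 0.0867 FPKM with pair 1 (1 read) and 0.290 FPKM with pair 2 (3 reads). The latter values were 7.01% (0.168 to 44.4%) and 23.5% (4.43 to 80.4%) of siNC. The neighbour Il1a on chromosome 2 was thus read in all 14 libraries and Il1b in 6.

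Il1rn, the antagonist, was at 0.602 and 0.512 FPKM in untreated and 0.427 and 0.421 FPKM in treated EpH4 cells, and was listed at 0 in all 4 untransfected EpRas libraries. It was read in EpRas cells with siNC, at 0.976 FPKM without and 1.23 FPKM with TGF-β. With the siRNA pairs it was lower in untreated cells, at 0.269 and 0.0479 FPKM, and was listed at 0 with both pairs in TGF-β. The gene has several annotated starts, and its reads could not be recovered, so no counting interval is given. When the filter on low values was left out, Il1rn passed the test between the lines without and with TGF-β (limma, adjusted p = 0.00603 and 0.00981), with a spread of 0 among the EpRas libraries. These comparisons are with libraries all listed at 0, and nothing is read from these calls.

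Il18 was at 0 to 0.597 FPKM in the untransfected libraries, on at most 3 reads. Without TGF-β its levels for siNC, pair 1 and pair 2 were 1.82, 0.298 and 1.27 FPKM (9, 2 and 8 reads), and with TGF-β at 0.349, 0.294 and 0.655 FPKM (3, 2 and 4 reads). Untreated pair 1 was thus at 16.4% of siNC (exact 95% interval 1.72 to 79.0%, counting error only) and untreated pair 2 at 69.9% (23.5 to 204%), and with TGF-β the pairs were at 84.1% (7.03 to 734%) and 187.7% (31.7 to 1280%). In siNC cells the level with TGF-β was 0.192 of that without (0.0334 to 0.768), on 3 and 9 reads. Il33, an alarmin stored in the nucleus, was listed at 0 in all 8 untransfected libraries, where 3 reads would have been 0.161 to 0.359 FPKM. With siNC it was at 0.404 and 0.265 FPKM (7 and 8 reads), with the pairs at 0.0849 and 0.0907 FPKM in untreated cells (2 reads each), and it was listed at 0 with both pairs in TGF-β. Il33 has several annotated starts, so its reads and the level of 3 reads are less certain.

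Il6 was read in 2 of 14 libraries only, the 2 of EpH4 cells with TGF-β, at 0.533 and 0.358 FPKM. It was listed at 0 in the other 12 libraries, all those of EpRas cells included. Its reads could not be recovered with certainty, and each of these values may stand for only 1 or 2 reads. Without the filter Il6 was called for TGF-β in EpH4 cells and between the lines with TGF-β (limma, adjusted p = 0.0270 and 0.0136), against libraries that are all listed at 0, and nothing is read from these calls.

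Csf2, which encodes GM-CSF, had few reads, and its highest values in untransfected cells were those with TGF-β. EpH4 cells had 0 and 0.302 FPKM when untreated and 0.851 and 0.572 FPKM when treated, whereas EpRas cells had 0.336 and 0 FPKM when untreated and 1.19 and 1.53 FPKM when treated. The treated libraries exceeded the untreated ones in both lines, and both treated EpRas libraries were above both treated EpH4 libraries, by summed reads 1.96-fold per depth with an exact 95% interval that includes 1 (0.646 to 6.57, 10 against 6 reads). The summed reads went from 2 to 6 in EpH4 cells (3.94-fold per depth, exact 95% interval 0.704 to 39.9) and from 1 to 10 in EpRas cells (11.4-fold, 1.63 to 496, counting error only). Without the filter the log2 difference in EpRas cells was 1.03 ± 0.20 and did not pass the test (limma, adjusted p = 0.0718).

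In the siRNA libraries Csf2 was at 0.647 FPKM with siNC, listed at 0 with pair 1 and at 0.127 FPKM with pair 2 without TGF-β (4, 0 and 1 reads). After TGF-β its levels were 1.58, 0.235 and 0.524 FPKM (17, 2 and 4 reads), and thus at 14.9% (1.66 to 62.5%) of siNC with pair 1 and 33.1% (8.11 to 102%) with pair 2.

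**Figure D4:**
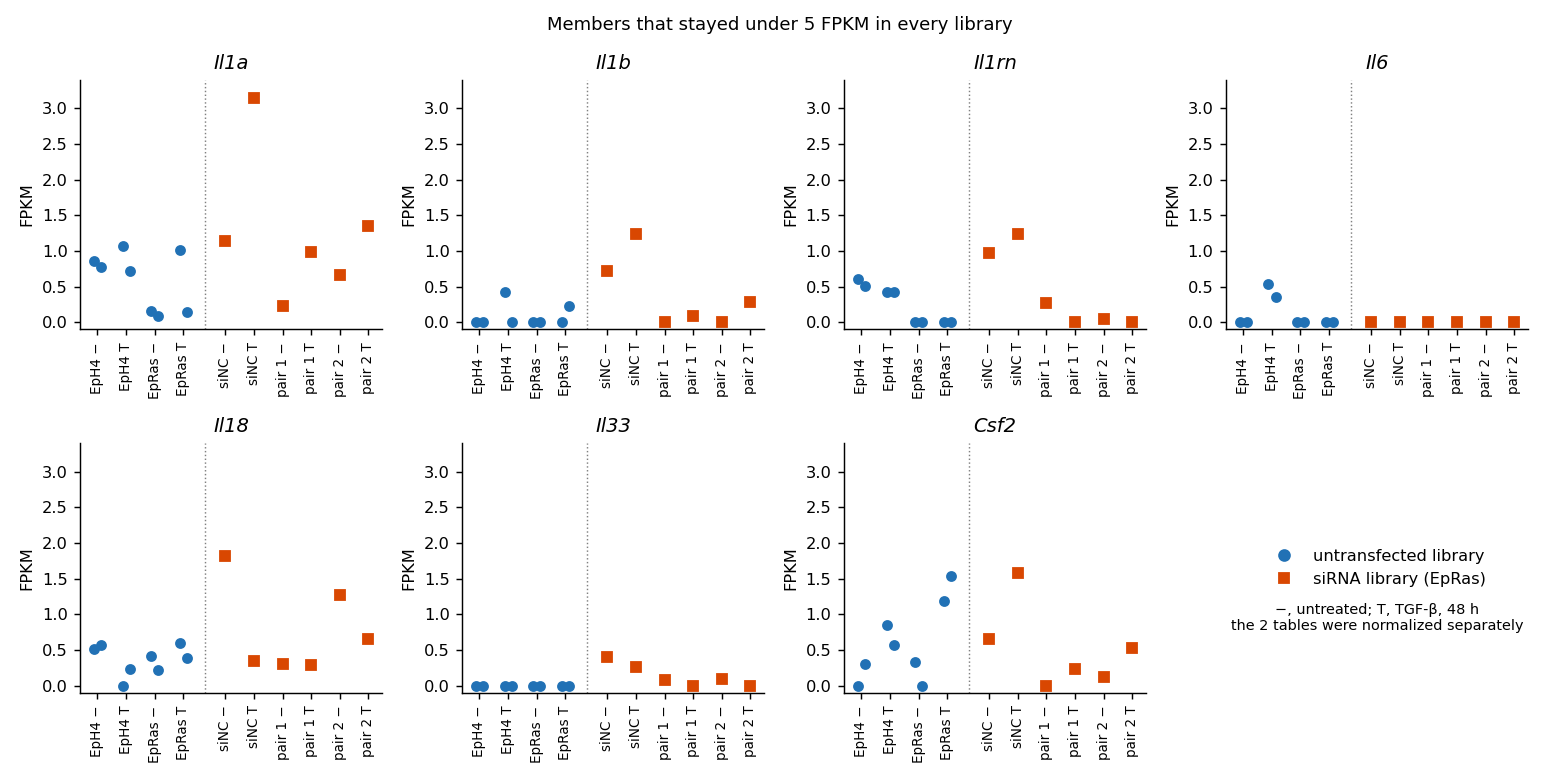
FPKM (vertical axis) of the 7 members that stayed under 5 FPKM, in the 8 untransfected libraries (circles) and the 6 siRNA libraries of EpRas cells (squares), untreated or with TGF-β (horizontal axis). Il1a reaches 3.14 FPKM with siNC and TGF-β, while Il6 is above 0 only in the 2 libraries of EpH4 cells with TGF-β.

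These low members were measured in the same libraries and are not replicates of each other, and no count over them is given, since a member at this level is detected mainly where it is high. The list of 9 leukocyte markers in the table was also lower with both pairs, with sums of 34.3, 16.5 and 19.5 FPKM for siNC, pair 1 and pair 2 without TGF-β and 42.6, 24.6 and 29.4 FPKM with it. In that list Cd68, Cd14 and Csf1r reached 5 FPKM and 6 markers stayed under 1 FPKM in all libraries, while the sum of 6 fibroblast markers was higher with both pairs, at 5.5, 24.6 and 16.5 FPKM without and 11.6, 43.1 and 22.4 FPKM with TGF-β. The sum of the endothelial markers was 0.585, 0.0262 and 0.0347 FPKM without and 2.0, 0.0774 and 0.229 FPKM with TGF-β. The part of these lists in the values of the members was not tested.

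Among other ligands of these families, 32 of 36 on the list were found in the table and 8 were tested. In untreated EpRas against EpH4 cells, 2 were higher, Clcf1, a gp130 ligand (log2 difference 0.96 ± 0.18, limma, adjusted p = 0.0113), and Il34, the other ligand of the M-CSF receptor (0.87 ± 0.22, adjusted p = 0.0339), and Il23a was lower (-1.11 ± 0.30, adjusted p = 0.0423). These were 3 of 8, against 17.6% of all genes. With TGF-β, 4 were called higher and 3 lower, where 21.3% of all genes were called, with Il11, a gp130 ligand (log2 difference 1.87 ± 0.22), Tslp (1.75 ± 0.26) and Il17d (-1.65 ± 0.29) the furthest from 0. Il11 and Tslp reached 5 FPKM only in EpRas and Il17d only in EpH4 cells, so that these 3 entered the test through the line in which they were higher, and their differences are given as values. The count with TGF-β includes them and is therefore not read against the share of all genes. In untreated EpRas cells Il34 was thus higher while Csf1 was lower.

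TGF-β raised 1 of the 8 ligands in EpH4 cells, Il23a (log2 difference 1.38 ± 0.30, limma, adjusted p = 0.0304), against 9.40% of all genes called. In EpRas cells the 1 ligand called was Il11 (log2 difference 2.24 ± 0.22), where 3.82% of all genes were called. Il11 was at 0.481 and 0.0862 FPKM in untreated and 4.33 and 5.71 FPKM in treated EpRas cells, and stayed between 0.195 and 0.728 FPKM in EpH4 cells. It passed the filter through 1 library of treated EpRas cells alone, so its calls, that for the difference between the effects (1.95 ± 0.31) included, follow in part from the filter.

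Receptors for several members, named after their values were seen, were at or near 0. Lifr, which pairs with gp130 in the receptor of Lif and of related ligands, stayed at or under 0.106 FPKM in all libraries, Csf3r at or under 0.0503 FPKM, Csf2ra was listed at 0 throughout, and Csf2rb stayed at or under 0.177 FPKM. Of the 17 receptor genes listed, 6 were tested. In EpH4 cells 3 of them were called higher with TGF-β (9.40% of all genes were called) and in EpRas cells 0 (3.82% of all genes). Csf1r, the receptor of M-CSF, was at 0.185 and 0.103 FPKM in untreated and 6.23 and 5.74 FPKM in treated EpH4 cells (log2 difference 2.61 ± 0.17), against 0.685 and 0.368 FPKM and 1.13 and 1.53 FPKM in EpRas cells. It passed the filter through treated EpH4 cells alone, so its differences are given as values, and the counts of receptors that include it are not read against the share of all genes. In transfected EpRas cells Csf1r was higher with TGF-β in all 3 kinds, at 1.28 and 5.01 FPKM with siNC, 0.459 and 2.92 FPKM with pair 1 and 1.07 and 3.62 FPKM with pair 2, without and with TGF-β. Il18r1 (2.27 ± 0.15, limma, adjusted p = 0.000250) and Il18rap (1.54 ± 0.21, adjusted p = 0.00548), the 2 chains of the interleukin-18 receptor, rose in EpH4 cells.

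The effect on Il18r1 differed between the untransfected lines, by -1.81 ± 0.22 (limma, adjusted p = 0.0172), and for Csf1r the value was -2.0 ± 0.24. In EpH4 cells with TGF-β the sum of 6 fibroblast markers was 222 to 247 FPKM, against 22.6 to 26.8 FPKM without, and the sum of the leukocyte markers, which include Csf1r, was 21.5 to 28.2 FPKM against 12.8 to 14 FPKM. The part of these lists in the results for EpH4 cells was not tested. Between the untreated lines 2 receptors were higher and 2 lower in EpRas cells, where 17.6% of all genes were called. The higher ones were Il18rap (1.02 ± 0.21, limma, adjusted p = 0.0181) and Il11ra1, the Il11 receptor (1.08 ± 0.25), which reached 5 FPKM in EpRas cells only, so that this count is not read against the share either. With TGF-β, 3 of 6 were called lower in EpRas cells, where 21.3% of all genes were called, namely Il18r1 (-2.56 ± 0.15, limma, adjusted p = 5.1e-05), Csf1r (-1.59 ± 0.17) and Il6st. Il6st, which encodes gp130, was lower in EpRas than in EpH4 cells without (-0.89 ± 0.17, limma, adjusted p = 0.0135) and with TGF-β (-1.11 ± 0.17, adjusted p = 0.00413).

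Of the 9 inhibitors and decoys listed, 7 were tested, and 2 of 7 were called in each comparison between the lines (17.6 and 21.3% of all genes), 2 with TGF-β in EpH4 (9.40%) and 1 in EpRas cells (3.82%). Tnfaip3, an inhibitor of NF-κB signalling, was lower in EpRas cells without (log2 difference -1.51 ± 0.15, limma, adjusted p = 0.000649) and with TGF-β (-1.52 ± 0.15, adjusted p = 0.000428), and Nfkbia was lower with TGF-β (-1.14 ± 0.23, adjusted p = 0.0114). Socs3, the feedback inhibitor of gp130 signalling, was the only one of the list that was higher, in untreated EpRas cells (0.94 ± 0.25, adjusted p = 0.0436). TGF-β raised Zc3h12a and Nfkbia in EpH4 cells (1.57 ± 0.23 and 1.22 ± 0.23, limma, adjusted p = 0.00687 and 0.0175) and lowered Socs1 in EpRas cells (-1.26 ± 0.23, adjusted p = 0.0290).

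Of the 14 genes for maturation and release, 6 were tested, and 3 of 6 were called between the untreated lines (17.6% of all genes), 2 with TGF-β (21.3%), 1 for TGF-β in EpH4 (9.40%) and 0 in EpRas cells (3.82%). Casp1, which cleaves the precursors of Il1b and Il18, was lower in EpRas cells without (log2 difference -1.41 ± 0.16) and with TGF-β (-1.04 ± 0.16), and so was Gsdmd, the pore protein for their release (-1.81 ± 0.15 and -1.97 ± 0.15). Both passed the filter through EpH4 cells only, so these differences are given as values, and the counts between the lines, which include both, are not read against the shares of all genes. Capn2, a calpain, was higher in untreated EpRas cells (0.58 ± 0.15, limma, adjusted p = 0.0357) and with TGF-β in EpH4 cells (0.69 ± 0.15, adjusted p = 0.0305). Of the 24 signalling genes, 21 were tested, and TGF-β changed 1 of 21 in EpH4 cells, Stat3 (0.67 ± 0.15, limma, adjusted p = 0.0360), against 9.40% of all genes, and 0 of 21 in EpRas cells, against 3.82%. Between the untreated lines 1 of 21 was lower in EpRas cells, Ptpn11 (-0.89 ± 0.15, limma, adjusted p = 0.00674), against 17.6% of all genes. With TGF-β, 4 of 21 were lower, near the 21.3% of all genes, among them Irak2 (-1.06 ± 0.25, limma, adjusted p = 0.0229), Ptpn11 (-0.86 ± 0.15, adjusted p = 0.00589) and Stat3 (-0.56 ± 0.15, adjusted p = 0.0364). The median log2 difference with TGF-β in EpH4 cells was -0.31 for the ligands, 0.91 for the receptors, 0.60 for the inhibitors, 0.26 for maturation and release and 0.09 for signalling, and in EpRas cells -0.13, 0.32, 0.36, 0.11 and 0.05, against -0.02 and -0.02 over all genes. The medians of ligands and receptors include Il11 and Csf1r, which passed the filter through treated cells alone, and nothing is read from these 2 medians.

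Of the 50 genes of the lists past the filter of the siRNA table, 3 were at least 2-fold from siNC with both pairs without TGF-β, against 4.02% of all genes, and 5 with TGF-β, where 3.82% of all genes were. They are named here after their values were seen, and the former 3 were lower in both conditions. Casp1 was at 14.5 FPKM with siNC and at 2.42 and 5.24 FPKM with the pairs, and with TGF-β at 10.5 FPKM against 2.31 and 3.49 FPKM. Il24, a cytokine of the interleukin-10 family, was at 135.0 FPKM against 21.5 and 35.5 FPKM, and with TGF-β at 100.4 FPKM against 21.4 and 28.0 FPKM. Clcf1 was at 168.3 FPKM against 42.9 and 58.9 FPKM, and with TGF-β at 231.7 FPKM against 35.0 and 37.1 FPKM. With TGF-β, Il1r1, the receptor for Il1a and Il1b, was higher with both pairs, at 7.12 and 6.10 FPKM against 2.31 FPKM, and passed the filter through the siRNA pairs only, so that the count with TGF-β, which includes it, is not read against the share of all genes. Relb, a subunit of NF-κB, was at 22 and 14.9 FPKM against 5.19 FPKM. In untransfected EpRas cells Clcf1 was at 45.7 to 60.03 FPKM, Il24 at 22.89 to 44.85 FPKM and Casp1 at 2.749 to 3.503 FPKM. These ranges lay below both siNC values. Relb was at 17.97 to 38.32 FPKM there, above siNC, and Il1r1 at 2.383 to 2.805 FPKM, near siNC. Untransfected and siRNA libraries were normalized separately, and the difference between siNC and untransfected cells was not tested. Differences of the pairs from siNC are therefore given as values only.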

How the data were processed

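The 8 untransfected and 6 siRNA libraries were deposited as FPKM in 2 tables from separate Cuffdiff runs. The authors aligned the reads to mm10 with TopHat2 2.0.11 and calculated FPKM with its confidence interval for each gene. Tests were made within a table only. All columns of FPKM were used, and Cuffdiff intervals are given for the siRNA libraries only. Genes with an OK status and a maximum of at least 5 FPKM passed the filter, 9100 for the untransfected and 9094 for the siRNA libraries. The 9100 were compared with limma 3.58.1 (R 4.3.3) on log2(FPKM + 1), which understates the change of low genes. The fit had 1 mean per group, 5 comparisons and Benjamini-Hochberg adjustment over all genes. A call is an adjusted p under 0.05. For single siRNA libraries, 2-fold on FPKM + 1 was used without a test. Where the FPKM of a gene were whole multiples of 1 value (tolerance 0.02), reads were recovered (5804 genes with 1 annotated start). Reads are also given for Il33, which has several starts. Ratios of reads have exact binomial intervals (95%). The test was checked on simulated data. All 10 members are named, of other listed genes up to 3 called ones with the largest difference per role and comparison, and the 2 genes most like each tested member. Receptors near 0 and listed genes 2-fold from siNC were named after their values were seen. Members and lists were chosen with earlier results of these data known. Alternatives covered pseudocounts, filters, rescaling, single replicates left out, the replicate block, smaller fits, the trend of the prior and the Tukey-Kramer test. Python 3.11.15, pandas 2.3.3 and scipy 1.17.1 were used. A further gene chosen as a check of the treatment is not reported here.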

Additional observations from a re-analysis of the deposited data

Results flagged for a closer look

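The values of Csf1 after TGF-β lay on opposite sides of the untreated ones in the lines. Both treated EpH4 libraries were above both untreated ones, and both treated EpRas libraries were below both untreated ones. In EpH4 cells the log2 difference of 0.20 (95% interval -0.12 to 0.52) did not pass the test (limma, adjusted p = 0.432). The effect in EpRas minus that in EpH4 cells was -1.08 on the log2(FPKM + 1) scale (95% interval -1.53 to -0.62), with an adjusted p of 0.0663 in limma, and missed the threshold. Over the alternatives the adjusted p lay between 0.0300 and 0.366.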

How the results depend on the processing

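The 15 comparisons of Csf1, Lif and Csf3 were refitted under 249 alternatives in all, of which 224 kept the direction and the side of the threshold, 19 lost the call, 3 gained it and 3 changed sign. For untreated EpRas against EpH4 cells, 2 members were called, and 1 with the replicate block or in a fit of the 2 groups alone (Csf1 in both; Csf3 with the block, adjusted p = 0.0634), and 0 to 2 when single libraries were left out. Without the filter, 3 were called between the untreated lines, where Il1rn joined, against EpRas libraries listed at 0. With TGF-β, 1 was called, and 3 without the filter, where Il1rn and Il6 joined, both against EpRas libraries listed at 0. For TGF-β in EpH4 cells, 1 was called, 2 without the filter (Il6 joined), 2 with the Tukey-Kramer test on FPKM (Csf1 joined), and 0 to 1 with single libraries left out. For TGF-β in EpRas cells, 1 was called, 0 with the replicate block (Csf1, adjusted p = 0.0506) or in a fit of the 2 groups, and 0 to 1 with single libraries left out. For the difference between the effects, 0 were called, and 1 (Csf1) with a pseudocount of 5 FPKM or without the filter. With genes from 1 FPKM, 1 member (Il1rn) instead of 0 was 2-fold below siNC with both pairs in TGF-β, which follows in part from the filter, since Il1rn reached 1 FPKM in siNC with TGF-β alone, and 2 members (Il18 joined Lif) instead of 1 were 2-fold apart after TGF-β in siNC cells. With single libraries left out, the log2 difference of Lif between the lines with TGF-β lay between -0.76 and 0.11 and that between its TGF-β effects between -0.30 and 0.56. That of Lif between the untreated lines lay between -0.73 and -0.19, and with TGF-β in EpRas cells between 0.39 and 1.26. For Csf3 the log2 difference with TGF-β in EpRas cells lay between -0.54 and -0.08, and between the treated lines between 0.20 and 0.65. The cause of these shifts was not tested. Replicate numbers of different groups did not deviate together (correlations of -0.347 to 0.0785), so they mark no pairs.

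With 2 libraries per group, leaving 1 out gives the lone library the spread of the other groups. The siRNA libraries have no replicates. Intervals on reads cover counting error only, and values below 1 FPKM rest on at most 18 reads where reads were recovered.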
